A study of Mus musculus with 9 samples.

Results

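The serpins (serine protease inhibitors) were followed across 9 mouse liver arrays. Members were every gene whose name on the array began with Serpin, a clade letter from a to i and a number, read from its brightest probe over the 9 arrays. The rule found 64 genes with 87 probes, among 37074 gene names and 56605 probes. Of these, 20 genes passed the filter on dim probes, meaning a signal well above background on all 3 arrays of 1 or more of the groups, and only these were tested. A gene that passed only through the groups where it is bright had to be higher there, so counts over the 20 are descriptions. All samples were livers of male C57BL/6N mice labelled 12 months, and all had received adeno-associated virus. For AAV-V and AAV-GP73 the study counts the 12 months from injection of the virus, so the label is not taken as the animals' age. It describes the intravenous injections as repeated. The 3 AAV-V samples had the empty vector and regular diet, the 3 AAV-GP73 samples had a vector for GP73 (a Golgi protein encoded by Golm1) and regular diet, and the 3 AAV-V HFD samples had the empty vector and a high-fat diet. The study describes the virus as specific to hepatocytes. The sources used here do not say if each liver sample came from a single mouse, so p-values measure the spread between these samples.

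Serpins trap a protease by offering a flexible reactive centre loop as bait. Cutting of the loop makes the serpin refold and hold the enzyme in a dead-end complex. Hepatocytes make most plasma serpins, which restrain elastase, the clotting enzymes, plasmin and the first complement proteases. Clade A and clades C, D, F and G are mainly secreted, whereas clade B serpins lack a classical signal peptide and act mostly inside cells. Humans have a single α1-antitrypsin gene and a single α1-antichymotrypsin gene, and mice have expanded each into a cluster of Serpina1 and Serpina3 paralogues.

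The Serpina1 probes are shown because their likeness limits how far the paralogues can be told apart. Some are taken to lie over or beside the codons of the reactive centre loop, which was not checked against a protein sequence. These are from the array design (mouse build mm9, chromosome 12, minus strand), and the capitals mark the 16 bases that all 3 share.
Serpina1a, chr12:105091979-105092038: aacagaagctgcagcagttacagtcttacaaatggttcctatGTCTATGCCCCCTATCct
Serpina1b, chr12:104966520-104966579: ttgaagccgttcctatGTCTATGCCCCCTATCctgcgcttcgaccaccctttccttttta
Serpina1e, chr12:105185280-105185339: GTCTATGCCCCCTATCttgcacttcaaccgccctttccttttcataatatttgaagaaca
Aligned on the shared run, the Serpina1b and Serpina1e probes were identical at 39 of 44 overlapping bases. Those of Serpina1a and Serpina1b were identical at 29 of 34, and those of Serpina1a and Serpina1e at 17 of 18. The probes of Serpina1a, Serpina1c and Serpina1e that were brightest are alike further along, and the 30-base stretches below carry 29 shared bases in capitals.
Serpina1a, within chr12:105091819-105091878: GTCATCCTTCCTTCTGAATTGGGTTCCTTc
Serpina1c, within chr12:105133165-105133224: GTCATCCTTCCTTCTGAATTGGGTTCCTTc
Serpina1e, within chr12:105185172-105185231: GTCATCCTTCCTTCTGAATTGGGTTCCTTt
The Serpina1a and Serpina1c probes differed at 1 of 51 overlapping bases. The Serpina1e probe differed from that of Serpina1a at 11 of 50 and from that of Serpina1c at 10 of 59. The array's own annotation lists Serpina1a, Serpina1b and Serpina1c for the Serpina1c probe and Serpina1b and Serpina1d for the Serpina1d probe. The brightest probes of Serpina1a, Serpina1b and Serpina1e list only their own gene. Signals of the 5 paralogues are therefore not taken as independent measurements of single genes. The probe of Serpina3k, a mouse relative of α1-antichymotrypsin and the 1 member called lower below, lists no other gene either.
Serpina3k, chr12:105582408-105582466: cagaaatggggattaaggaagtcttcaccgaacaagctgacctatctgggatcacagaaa

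The promoters of the Serpina1 paralogues were alike too. RefSeq promoters (build GRCm38.p6, 250 bases before to 50 after each start) were given for 54 of the 64 members. Serpina1a to Serpina1e are on the minus strand, and the capitals mark the 55 bases before the start that all 5 share.
Serpina1a, chr12:103863620-103863679: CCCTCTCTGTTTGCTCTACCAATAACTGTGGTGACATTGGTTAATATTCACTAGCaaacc
Serpina1e, chr12:103956955-103957014: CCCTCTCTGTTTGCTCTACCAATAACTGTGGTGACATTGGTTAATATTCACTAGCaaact
The run began at position -55 in Serpina1d and at position -117 in Serpina1e relative to the annotated start. The STAT motif TTCNNNGAA, searched on both strands and identical to its reverse complement, was present in 8.3% of all 32851 promoters. It was found in 8 of the 54 members with a promoter. Among the 16 tested members with a promoter it was found in 3, namely Serpina11, Serpina3g and Serpinb6a. For the tested members Serpina3k, Serpina3m, Serpina6 and Serping1 no promoter was given, so they were not searched. A motif match is a description of letters and not of binding.

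Signal levels differed between the groups, and this touches every value that follows. In AAV-V, 10.17% to 10.75% of spots were well above background, against 16.02% to 18.38% in AAV-GP73 and 13.8% to 16.74% in the AAV-V HFD group. Among spots detected on all arrays the median signal was 36.35 to 41.76 in AAV-V, 138.1 to 169.3 in AAV-GP73 and 95.41 to 201.9 in the AAV-V HFD group. AAV-V and AAV-GP73 shared 1 slide and scan, and AAV-V HFD had slide 2 to itself, so diet and slide cannot be told apart. Signals were therefore scaled between arrays on the 75th percentile of the 2667 probes well above background on all 9 arrays, and are given as scaled log2 signal. The Golm1 probe was well above background on 0 of 9 arrays, with signals of 1.51 to 1.81 in AAV-GP73 and 1.62 to 2.06 in AAV-V, so it does not check the labels. The hepatocyte marker list was well above background for 6 of its 6 members on the array in AAV-V and in AAV-GP73 and for 5 in AAV-V HFD. Its summed scaled signal spanned 7788 to 9706 in AAV-V, 7061 to 8931 in AAV-GP73 and 4007 to 6347 in the AAV-V HFD group. That of the erythroid markers was 224.2 to 530.0 in AAV-V, 362.4 to 609.6 in AAV-V HFD and 1781 to 9174 in AAV-GP73, and its part in the results was not tested. Of the other marker lists, the numbers above background on every array of AAV-V, AAV-GP73 and AAV-V HFD were 1, 3 and 3 of 6 for macrophages and 1, 2 and 3 of 5 for neutrophils. They were 1, 1 and 1 of 6 for stellate cells and fibroblasts, 0, 1 and 0 of 5 for endothelium, 1, 1 and 1 of 6 for lymphocytes, 1, 1 and 1 of 5 for pancreatic acinar cells, and 0 of 5 throughout for cholangiocytes. In whole liver, fewer cells of a type and less RNA per cell cannot be told apart.

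Most of the serpins seen in these livers were plasma serpins of clades A, C, D, F and G. Of 26 clade A genes, 11 were tested, and 9 of those were well above background on all 9 arrays. Antithrombin (Serpinc1), heparin cofactor II (Serpind1), Serpinf1, α2-antiplasmin (Serpinf2) and C1 inhibitor (Serping1) were also well above background on all 9. Clade B, the intracellular serpins, had 27 genes, of which 24 were on no array and 3 were tested, with Serpinb8 on all 9 arrays and Serpinb6a and Serpinb6c on 6. Of clade E, Serpine2 was tested, and Serpine3 was on no array. Serpinh1, the collagen chaperone HSP47, and the clade I genes Serpini1 (neuroserpin) and Serpini2 were on no array either. In all, 40 genes were on no array, and the other 4 untested genes were Serpina10, Serpina3c, Serpina3i and Serpina3n, on 1 or 2 arrays each.

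**Figure D1:**
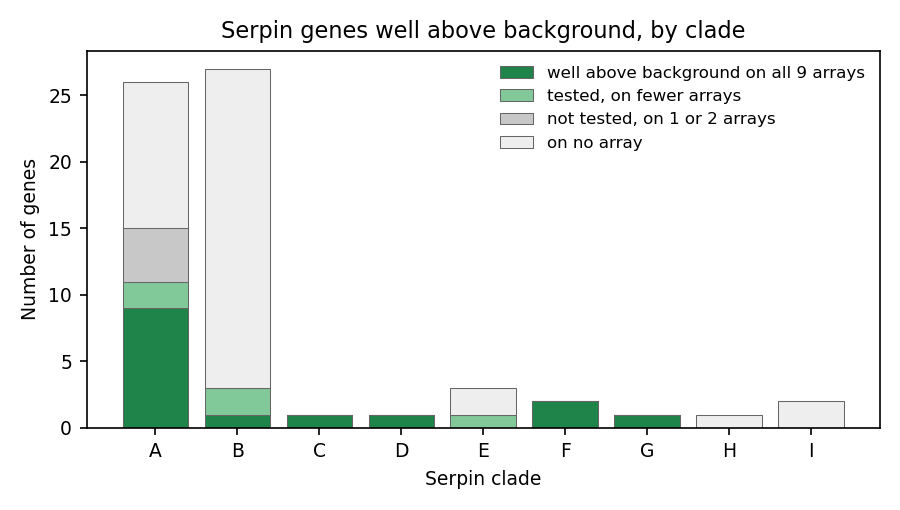
Number of Serpin genes in each clade (vertical axis, genes; horizontal axis, clade letter), split by the number of arrays on which the gene's probe was well above background. Of 26 clade A genes 9 were on all 9 arrays, whereas 24 of 27 clade B genes were on none.

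The untested clade A genes on no array were Serpina12, Serpina16, Serpina1f, Serpina3a, Serpina3b, Serpina3f, Serpina3h, Serpina4-ps1, Serpina5, Serpina7 (thyroxine-binding globulin) and Serpina9. Those of clade B were Serpinb1a, Serpinb1b, Serpinb1c, Serpinb2, Serpinb3a, Serpinb3b, Serpinb3c, Serpinb3d, Serpinb5, Serpinb6b, Serpinb6d, Serpinb6e, Serpinb7, Serpinb9, Serpinb9b, Serpinb9c, Serpinb9d, Serpinb9e, Serpinb9f, Serpinb9g, Serpinb10, Serpinb11, Serpinb12 and Serpinb13. Not being above background at these low signals does not show that a gene was off.

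Against AAV-V, 5 of the 20 tested serpins were called higher in AAV-GP73 and 0 lower. A call needed a 2-fold change or more with an adjusted p below 0.05 (limma, Benjamini-Hochberg over 5761 genes). Of all genes tested, 33.2% were called higher and 19.4% lower. With 20 genes, the share of serpins called higher, 25%, is near that background and is not read as a trait of the serpins. The genes called were Serpina3m, Serpinb6a, Serpinb6c, Serpine2 and Serping1, and the median log2 fold change of the 20 was 0.31 against 0.60 for all genes. Over the members detected on all 9 arrays, the median was 0.12 for 15 serpins and -0.19 for 2427 genes. Of these, 13.3% of the serpins and 15.9% of the genes were called higher, and 0% and 32.6% lower. In AAV-V HFD against AAV-V, 2 serpins rose and 1 fell by the same rule, beside 24.8% and 18.2% of all genes. The median there was -0.43 for the serpins and 0.37 for all genes, and -0.44 and -0.36 over those detected on all 9 arrays. Serpinb6a and Serpinb6c were the 2 called higher and Serpina3k the 1 called lower. These comparisons share the AAV-V arrays.

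Scaling decided much of this count. With the 75th percentile of all probes in place of detected probes, 14 serpins were called higher under GP73 and 6 under the diet, with 0 lower in both. Of all genes tested, 64.5% and 56.8% were then called higher, and 6.96% and 3.16% lower. That scaling moved the median of all genes from 0.60 to 1.59 for AAV-GP73 and from 0.37 to 1.32 for AAV-V HFD. The share of called genes that were higher went from 63.1% to 90.3% and from 57.6% to 94.7%. The serpins' median was below that of all genes under both of these scalings and in both comparisons, but above it with normexp background correction (-0.10 against -0.58 for AAV-GP73, and -0.37 against -0.73 for AAV-V HFD).

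**Figure D2:**
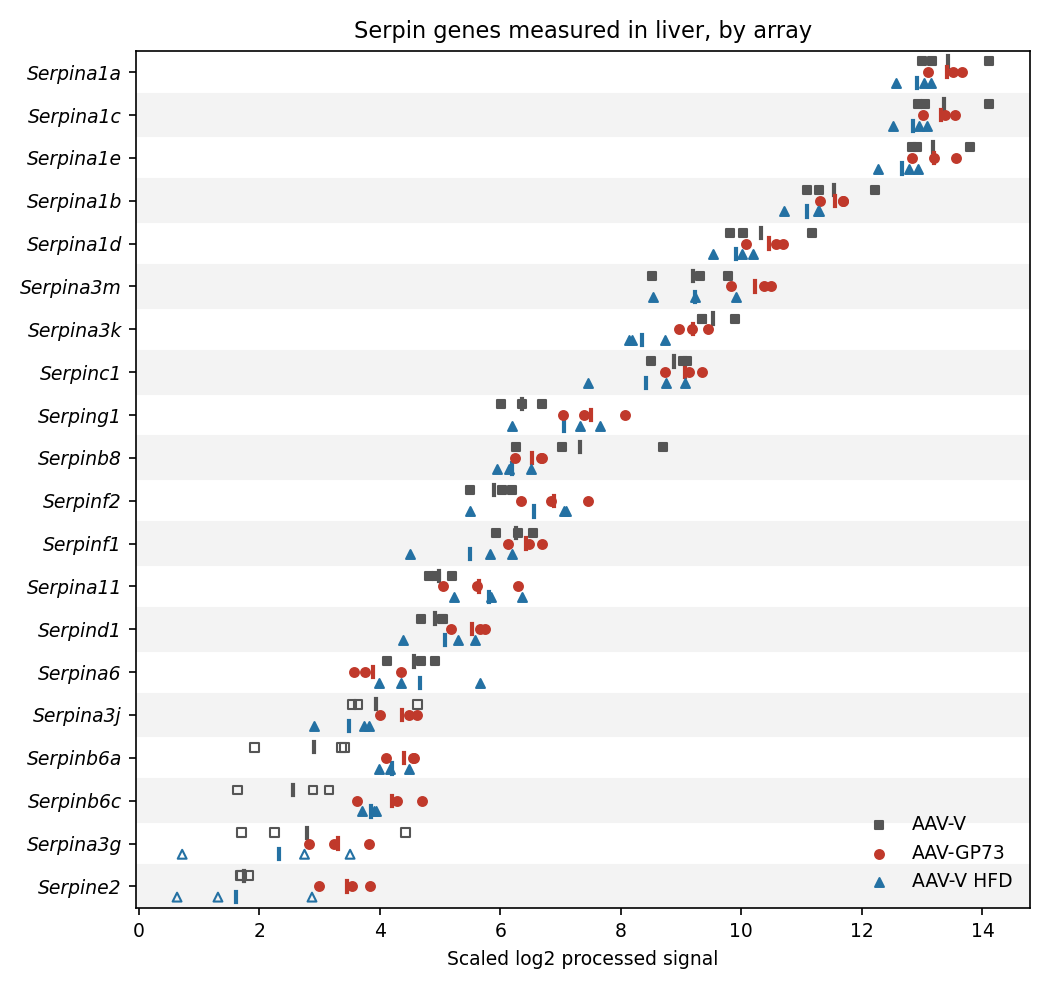
Scaled log2 signal (horizontal axis) of the 20 tested Serpin genes on each of the 9 arrays, with group means as ticks and open symbols where a group was not well above background on all 3 of its arrays. Probes differ in brightness, so rows are not ranked against each other. Serpina3m, Serpinb6a, Serpinb6c, Serpine2 and Serping1 are higher in AAV-GP73 than in AAV-V on every array.

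The α1-antitrypsin paralogues, inhibitors of neutrophil elastase, did not pass the test in any comparison. Serpina1a (α1-antitrypsin 1-1) was 13.16, 14.11 and 13.00 in AAV-V, 13.66, 13.51 and 13.09 in AAV-GP73, and 12.57, 13.04 and 13.14 in AAV-V HFD. The groups overlapped, and AAV-V replicate 2 was the highest of the 9. The difference between AAV-GP73 and AAV-V was -0.01 ± 0.34 (SE, adjusted p = 0.987), and that between AAV-V HFD and AAV-V was -0.51 ± 0.34 (adjusted p = 0.217). Serpina1e was 12.91, 13.80 and 12.84 in AAV-V, 13.57, 13.20 and 12.83 in AAV-GP73, and 12.27, 12.78 and 12.93 in AAV-V HFD. Its groups overlapped in the same way. Over the 5 paralogues the differences ran from -0.05 (Serpina1c) to 0.12 (Serpina1d) in AAV-GP73 and from -0.52 (Serpina1e) to -0.42 (Serpina1d) in AAV-V HFD. The Serpina1a and Serpina1e probes of the first set shown above, read on their own, gave 0.03 and 0.16 in AAV-GP73, and -0.50 and -0.62 in AAV-V HFD. The 95% confidence interval for Serpina1a was -0.75 to 0.73 in AAV-GP73 and -1.25 to 0.23 in the AAV-V HFD group.

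On each array the 5 paralogues deviated together from their own means. Their deviations lay within 0.07 to 0.27 log2 units of each other on any 1 array, while their average ran from -0.69 in AAV-V HFD replicate 1 to 0.87 in AAV-V replicate 2. The signal is thus a common one at the resolution of these probes. The scale of that common signal was set by the scaling. With all-probe scaling Serpina1b, Serpina1d and Serpina1e passed the threshold in AAV-GP73, at 1.02, 1.11 and 1.01, and with scaling on the spike-in spots Serpina1a was at 1.68 and Serpina1c at 1.63. Serpina1f was on no array.

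**Figure D3:**
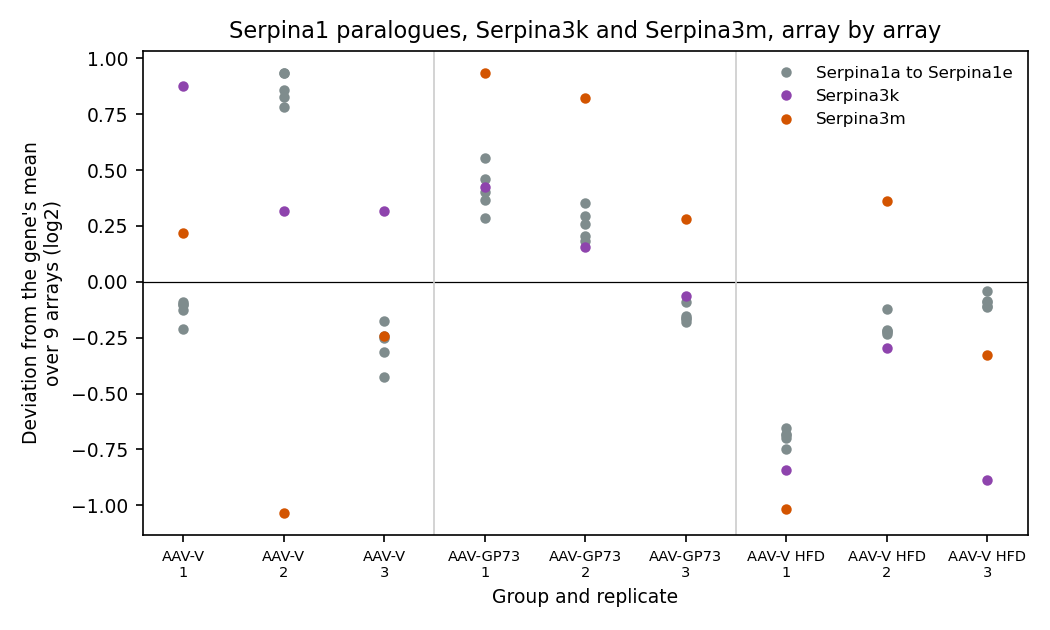
Deviation of each gene's scaled log2 signal from its own mean over the 9 arrays (vertical axis, log2 units) on each array (horizontal axis, group and replicate). The 5 Serpina1 paralogues in grey lie within 0.27 of each other on each array, whereas Serpina3m is above Serpina3k in AAV-GP73 and below it in AAV-V.

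Serpina3k and Serpina3m were the Serpina3 paralogues well above background on all arrays, and each was called in a different comparison. Serpina3m was 9.77, 8.52 and 9.31 in AAV-V, 10.49, 10.37 and 9.83 in AAV-GP73, and 8.54, 9.91 and 9.23 in AAV-V HFD. Every AAV-GP73 array was above every AAV-V array, by a narrow margin at the nearest pair, and the AAV-V HFD arrays spanned both. The difference in AAV-GP73 was 1.03 ± 0.41 (SE, adjusted p = 0.0448), and in AAV-V HFD it was 0.03 ± 0.41 (adjusted p = 0.961). This call lay at the threshold. It was lost without AAV-V replicate 2 (0.69, adjusted p = 0.161), AAV-V replicate 3 (1.09, adjusted p = 0.0755), AAV-GP73 replicate 1 (0.90, adjusted p = 0.127), AAV-GP73 replicate 2 (0.96, adjusted p = 0.115) or AAV-V HFD replicate 3, through the shared spread (1.03, adjusted p = 0.0543). It was also lost with replicate number as a block (1.03, adjusted p = 0.0659), with scaling on the median of detected probes (0.92, adjusted p = 0.0674) and with the authors' log2 values (1.07, adjusted p = 0.0585).

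Serpina3k was 9.90, 9.34 and 9.34 in AAV-V, 9.45, 9.18 and 8.96 in AAV-GP73, and 8.18, 8.73 and 8.14 in AAV-V HFD. The AAV-V HFD arrays were below all others. The difference was -1.18 ± 0.29 (SE, adjusted p = 0.00604) in AAV-V HFD and -0.33 ± 0.29 (adjusted p = 0.332) in AAV-GP73. The AAV-V HFD value was below a 2-fold change without AAV-V replicate 1 (-0.99, adjusted p = 0.0193), with the authors' log2 values (-0.94), with quantile normalization (-0.86) and with normexp (-0.85). It was -0.22 with all-probe scaling and turned to 0.16 with spike-in scaling.

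A difference between 2 probes on 1 array is unchanged when the whole array is shifted by a constant, as by the scaling used here. Such a difference can change with quantile normalization, normexp or the authors' log2 values. Serpina3m minus Serpina3k was -0.13, -0.83 and -0.03 in AAV-V, 1.04, 1.19 and 0.87 in AAV-GP73, and 0.36, 1.18 and 1.09 in AAV-V HFD. Both groups were above AAV-V on every array. The group means differed from AAV-V by 1.36 in AAV-GP73 and 1.20 in the AAV-V HFD group. The pair was chosen after its values were seen, so this is a description with no test, and it does not say which of the paralogues differed.

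The remaining Serpina3 paralogues were dim. Serpina3j, well above background on 1 AAV-V array and all 6 others, was 4.63, 3.64 and 3.54 in AAV-V, 4.61, 4.48 and 4.01 in AAV-GP73, and 2.91, 3.74 and 3.82 in AAV-V HFD. AAV-V overlapped both groups, and neither difference from AAV-V passed the test (0.43, adjusted p = 0.317, and -0.44, adjusted p = 0.323). Serpina3g, an inhibitor of cysteine cathepsins known from blood cells, was well above background on 1 AAV-V, 3 AAV-GP73 and 2 AAV-V HFD arrays. Its differences were 0.51 ± 0.74 and -0.47 ± 0.74 (SE). Serpina3n, a mouse acute phase serpin, was well above background on 1 AAV-GP73 and 1 AAV-V HFD array, Serpina3c on 1 AAV-GP73 array and Serpina3i on 1 AAV-V array, and none was tested. Serpina3a, Serpina3b, Serpina3f and Serpina3h were on no array, and the brightest Serpina3f probe lists Serpina3h too.

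Other clade A serpins did not pass. Serpina6, corticosteroid-binding globulin, was 4.91, 4.12 and 4.69 in AAV-V, 3.57, 4.36 and 3.76 in AAV-GP73, and 3.99, 5.67 and 4.35 in AAV-V HFD, with overlap between all groups. Its difference in AAV-GP73 was -0.68 ± 0.42 (SE, adjusted p = 0.178). Serpina11 was 5.20, 4.82 and 4.93 in AAV-V, 6.30, 5.61 and 5.05 in AAV-GP73, and 5.23, 6.35 and 5.84 in AAV-V HFD. Its AAV-V HFD arrays were all above the AAV-V arrays, with a difference of 0.82 ± 0.37 (adjusted p = 0.0797) that passed without AAV-V HFD replicate 1 (1.11, adjusted p = 0.0364). Serpina10, the protein Z-dependent inhibitor, was well above background on 1 AAV-V HFD array.

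Among the serpins of plasma cascades, C1 inhibitor (Serping1, chr2:84605663-84605722), which restrains complement C1 proteases and kallikrein, was the 1 called. It was 6.69, 6.01 and 6.36 in AAV-V, 8.07, 7.39 and 7.04 in AAV-GP73, and 6.19, 7.65 and 7.32 in AAV-V HFD. All AAV-GP73 arrays were above all AAV-V arrays, and AAV-V HFD replicate 1 fell among the AAV-V arrays. The difference was 1.15 ± 0.40 (SE, adjusted p = 0.0277) in AAV-GP73 and 0.70 ± 0.40 (adjusted p = 0.16) in AAV-V HFD. The AAV-GP73 call was lost without AAV-V replicate 2 (0.98, adjusted p = 0.083), AAV-V replicate 3 (1.15, adjusted p = 0.0604), AAV-GP73 replicate 1 (0.86, adjusted p = 0.114) or AAV-GP73 replicate 2 (1.20, adjusted p = 0.0563), and with the authors' log2 values (0.87, adjusted p = 0.107). Without AAV-V HFD replicate 1 the AAV-V HFD difference passed (1.13, adjusted p = 0.0292).

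The α2-antiplasmin gene Serpinf2, whose product is the main plasmin inhibitor of plasma, had a similar order of arrays. It was 6.19, 5.49 and 6.03 in AAV-V, 7.46, 6.84 and 6.35 in AAV-GP73, and 5.50, 7.06 and 7.10 in AAV-V HFD. The AAV-GP73 arrays did not overlap AAV-V, and the difference of 0.98 ± 0.44 (SE, adjusted p = 0.0726) fell short of both thresholds. In AAV-V HFD it was 0.65 (adjusted p = 0.232), and 1.18 (adjusted p = 0.0264) without AAV-V HFD replicate 1. Heparin cofactor II (Serpind1), a thrombin inhibitor, was 5.05, 4.68 and 5.03 in AAV-V, 5.74, 5.66 and 5.17 in AAV-GP73, and 4.38, 5.58 and 5.30 in AAV-V HFD. Its AAV-GP73 arrays were also all above AAV-V, with a difference of 0.61 ± 0.34 (adjusted p = 0.135). That difference was close to the 0.60 median of all genes, many of which were not detected on every array. Serpind1 was, and the median of genes detected on all 9 arrays was -0.19.

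Antithrombin (Serpinc1), the main inhibitor of thrombin and factor Xa, gave different answers from its 2 tested probes. The brightest was 9.10, 8.50 and 9.03 in AAV-V, 9.35, 9.13 and 8.73 in AAV-GP73, and 7.45, 9.06 and 8.74 in AAV-V HFD. These groups overlapped, and the differences were 0.19 ± 0.40 (SE, adjusted p = 0.685) and -0.46 ± 0.40 (adjusted p = 0.345). The second probe, for which no gene's accession was matched in RefSeq, was called lower in both, with fitted differences of -2.73 in AAV-GP73 and -2.21 in the AAV-V HFD group, and was well above background on 1 of 3 arrays of each of those groups, so the size of those differences is not settled. Serpinf1, the antiangiogenic factor PEDF, was 6.55, 5.93 and 6.30 in AAV-V, 6.48, 6.69 and 6.13 in AAV-GP73, and 4.49, 6.19 and 5.82 in AAV-V HFD. It did not pass in either comparison (0.17 and -0.76), while its second tested probe was called lower in AAV-V HFD (-1.05, adjusted p = 0.0434).

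The intracellular serpins Serpinb6a and Serpinb6c, both on chromosome 13 (chr13:34009796-34009855 and chr13:33971703-33971762), were the members called higher in both comparisons. They entered the test only through AAV-GP73 and AAV-V HFD, the groups where they are bright, so their calls are not independent of the filter. Of 4 Serpinb6a probes and 2 Serpinb6c probes, only the brightest of each was well above background on any array. Each call thus rests on 1 probe. Serpinb6a was 3.37, 1.92 and 3.42 in AAV-V, 4.56, 4.11 and 4.55 in AAV-GP73, and 3.98, 4.16 and 4.49 in AAV-V HFD. Serpinb6c was 1.64, 3.16 and 2.89 in AAV-V, 4.70, 3.63 and 4.29 in AAV-GP73, and 3.70, 3.90 and 3.93 in AAV-V HFD. For both genes every array of either group was above every AAV-V array, but neither probe rose well above background in AAV-V. The AAV-V value is therefore a ceiling. Set against the lowest detected signal of each AAV-V array, or the probe's own signal where that was higher, Serpinb6a was at least 1.46-fold higher in AAV-GP73 (fitted log2 difference 1.50, adjusted p = 0.00574) and at least 1.28-fold higher in AAV-V HFD (fitted log2 difference 1.31, adjusted p = 0.0146). Serpinb6c was at least 1.27-fold higher in AAV-GP73 (fitted log2 difference 1.64, adjusted p = 0.00429) and had no such bound in AAV-V HFD, where the fitted log2 difference was 1.28 (adjusted p = 0.0191). These bounds compare group means under the scaling used here and leave out the spread between arrays.

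These dim probes depended on background correction. With normexp and an offset of 50 the Serpinb6a difference turned to -0.46 in AAV-GP73 and -0.63 in the AAV-V HFD group, and that of Serpinb6c to -0.50 and -0.67. Without AAV-V replicate 2 the Serpinb6a difference in AAV-V HFD was 0.82 (adjusted p = 0.0338), below 2-fold. The Serpinb6c call in AAV-V HFD was lost without AAV-V replicate 1 (0.82, adjusted p = 0.0626) or AAV-V HFD replicate 2 (1.25, adjusted p = 0.0533).

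Serpinb8, a clade B inhibitor of furin-type proteases, was well above background throughout by its brightest probe. Its other probe was above background on 1 AAV-GP73 array only. The brightest probe was 6.26, 8.69 and 7.02 in AAV-V, 6.67, 6.69 and 6.24 in AAV-GP73, and 5.95, 6.14 and 6.51 in AAV-V HFD. AAV-V spread widely, with replicate 2 the highest of all arrays, and overlapped both groups. The differences, -0.79 ± 0.50 (SE, adjusted p = 0.179) and -1.13 ± 0.50 (adjusted p = 0.0721), did not pass. They rested on AAV-V replicate 2, without which they were -0.11 (adjusted p = 0.79) and -0.44 (adjusted p = 0.269). Without AAV-V replicate 1 both passed (-1.32, adjusted p = 0.0249, and -1.66, adjusted p = 0.0109).

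Serpine2, or protease nexin-1, which inhibits thrombin and plasminogen activators at cell surfaces, was 1.69, 1.82 and 1.71 in AAV-V, 3.84, 3.54 and 2.98 in AAV-GP73, and 1.31, 2.87 and 0.63 in AAV-V HFD (chr1:79790914-79790973). The AAV-GP73 arrays were above all others, and the probe was well above background on all 3 of them, on 1 AAV-V HFD array and on no AAV-V array. Serpine2 entered the test through AAV-GP73 alone, and its other probe was well above background on no array. The fitted difference from AAV-V was 1.71 ± 0.47 (SE, adjusted p = 0.00839). It allows no least fold, because the lowest detected signals on the AAV-V arrays, 3.77 to 3.94, were above the AAV-GP73 mean of 3.45. With normexp the difference turned to -0.59.

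**Figure D4:**
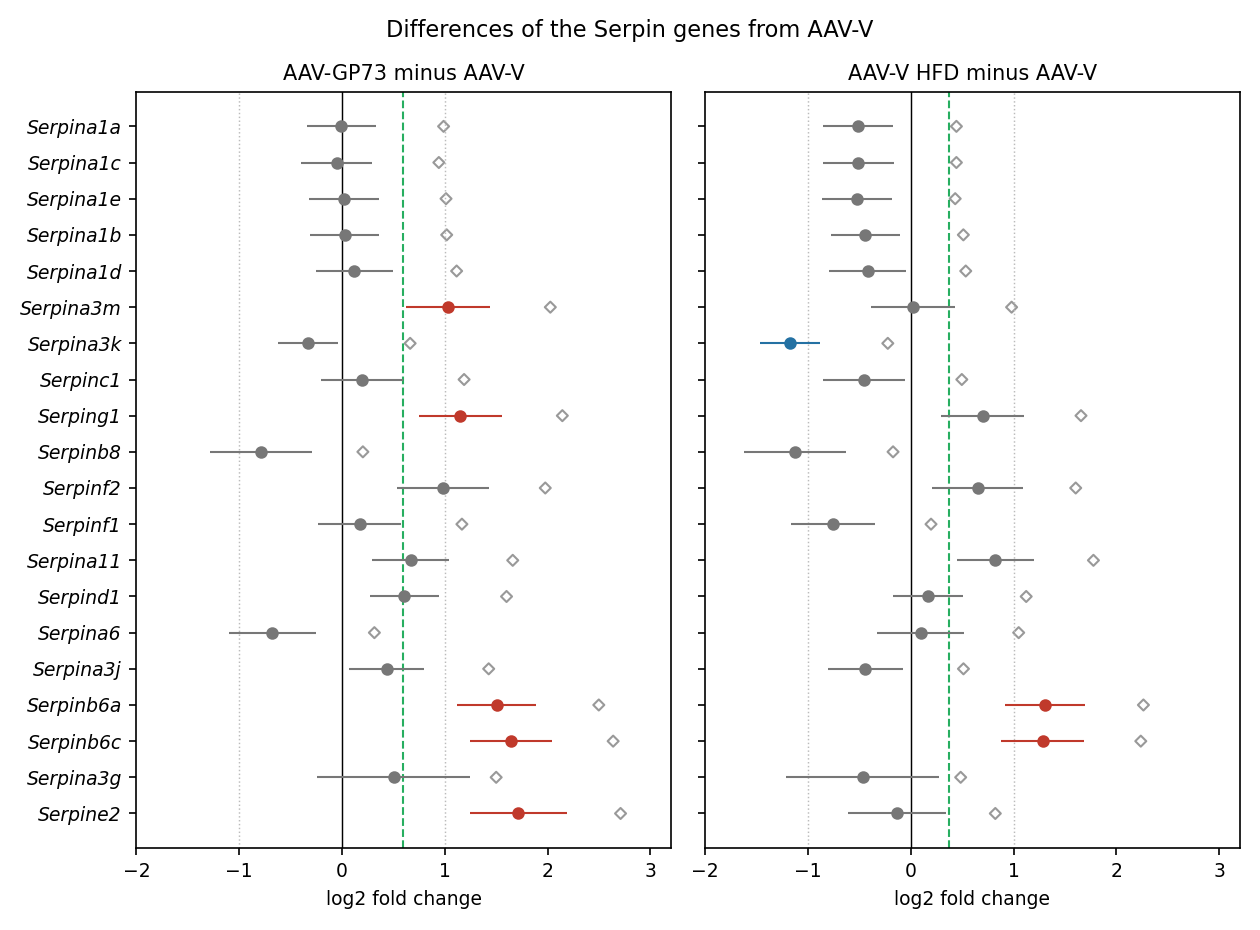
Log2 fold change from AAV-V (horizontal axis) of each tested Serpin gene in AAV-GP73 (left) and AAV-V HFD (right). Filled points with bars are the estimate ± SE, red called higher, blue called lower and grey not called, open diamonds the estimate with all-probe scaling, dotted lines a 2-fold change, and the dashed green line the median of all genes, 0.60 on the left and 0.37 on the right. The diamonds lie to the right of the points throughout, and Serpina3k is the 1 member called lower.

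The direct comparison asked whether the serpins differed between AAV-GP73 and AAV-V HFD, the paper's models of fatty liver without and with obesity. By limma 0 members were called in either direction, beside 1.96% of all genes called higher and 0.555% called lower. With no adjustment, 5 of the 20 had a p below 0.05 (Serpina3j, Serpina3k, Serpina3m, Serpine2 and Serpinf1), each higher in AAV-GP73, beside 10.9% of all genes higher at that threshold. The median of the 20 was 0.49, against 0.09 for all genes. Serpine2 had a fitted difference of 1.85 (adjusted p = 0.0675), but its probe was well above background on 1 of the 3 AAV-V HFD arrays and was tested through AAV-GP73 alone, so its size is not settled. Serpina3k differed by 0.85 ± 0.29 (adjusted p = 0.17) and Serpina3m by 1.01 ± 0.41 (adjusted p = 0.244). The calls against AAV-V that were made in 1 model and not in the other are thus not shown to differ between the models. Slide and group coincide here as well.

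The genes around the serpins were read from lists. There too, a gene that passed the filter only through the groups where it is bright had to be higher there. The lists therefore give descriptions. Their counts are to be read beside the shares of all genes given above, 33.2% higher and 19.4% lower in AAV-GP73 with a median of 0.60, and 24.8% and 18.2% in AAV-V HFD with a median of 0.37. Of 22 tested serpin target proteases, 3 were called higher in AAV-GP73 and 1 lower, with a median of 0.66. The 1 lower was Elane, neutrophil elastase, the enzyme that α1-antitrypsin restrains, at -1.61 ± 0.30 (SE, adjusted p = 0.000863) in AAV-GP73 and -1.27 in the AAV-V HFD group. With all-probe scaling these were -0.62 and -0.31 and were not called. Elane is also a neutrophil marker, and the summed signal of that marker list was 52.24 to 142.5 in AAV-V, 24.41 to 144.4 in AAV-GP73 and 35.35 to 77.49 in the AAV-V HFD group. The 3 higher were C1ra, a complement protease held by C1 inhibitor, at 1.16, cathepsin S (Ctss) at 1.40 and the clotting factor F9 at 1.77. Of these, Ctss and F9 were on no AAV-V array and were at least 1.18-fold and 1.12-fold higher. Those bounds are of group means, as for Serpinb6a, and were not recomputed with normexp. In AAV-V HFD 2 of the list were called higher and 1 lower.

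Of 21 tested genes of serpin folding and export from the endoplasmic reticulum, 3 were called higher (Sec24a, Surf4 and Vcp) and 1 lower in AAV-GP73, with a median of 0.46. The lower was Hsp90b1, the chaperone GRP94, at -1.16 (adjusted p = 0.00714). In AAV-V HFD the counts were 3 and 1. Among 5 tested serpin receptors and cofactors, Hspg2 (perlecan) was lower at -2.58 ± 0.32 (SE, adjusted p = 0.000113), and Asgr1, a subunit of the asialoglycoprotein receptor, was higher at 1.03 (adjusted p = 0.0349). Lrp1, the receptor that clears serpin-protease complexes, was at least 1.42-fold higher and on no AAV-V array.

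Of 12 tested hepatic transcription factors, 7 rose and 1 fell in AAV-GP73, with a median of 1.32. In this list 12 genes were well above background on every AAV-GP73 array, but only 2 on every AAV-V array. The count and the median are therefore partly set by the filter. Hnf4a, a regulator of many hepatocyte genes, was 6.16, 5.25 and 5.35 in AAV-V, 7.78, 7.91 and 8.45 in AAV-GP73, and 6.71, 6.96 and 7.29 in AAV-V HFD. The 3 groups did not overlap, and the difference in AAV-GP73 was 2.46 ± 0.32 (SE, adjusted p = 0.000143). Stat5a was lower, at -1.87 (adjusted p = 0.000757), and at -0.88 and not called with all-probe scaling. In AAV-V HFD the counts were 5 higher and 1 lower.

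Acute phase proteins, the plasma proteins that inflammation raises or lowers, had 2 called higher and 1 called lower of 21 in AAV-GP73, with counts of 3 and 1 under the diet. Single arrays stood apart for the serum amyloid genes, chosen after their values were seen. Saa1 was 7.45, 3.42 and 4.03 in AAV-V, 10.80, 4.03 and 5.21 in AAV-GP73, and 5.55, 6.34 and 8.43 in AAV-V HFD. Saa2 was 7.94, 3.63 and 3.98 in AAV-V, 11.85, 4.70 and 6.05 in AAV-GP73, and 6.10, 7.24 and 9.49 in AAV-V HFD. Replicate 1 was thus far above the others in AAV-V as well as in AAV-GP73. Haptoglobin (Hp) was higher in both comparisons with AAV-V, by 1.64 (adjusted p = 0.0336) and 1.68 (adjusted p = 0.034). Hp was 9.57, 8.49 and 8.98 in AAV-V, 11.75, 10.33 and 9.88 in AAV-GP73, and 9.27, 11.43 and 11.38 in AAV-V HFD. AAV-GP73 replicate 1 was again the highest array, and AAV-V HFD replicate 1 fell among the AAV-V arrays. The other gene called higher in AAV-GP73, Itih4, was 9.87, 8.20 and 8.32 there. Orm3 was lower in both comparisons with AAV-V, by -1.19 (adjusted p = 0.00689) and -1.91 (adjusted p = 0.000864). Of 15 tested growth hormone and sex-biased genes, 6 were called higher in AAV-GP73 and 0 lower. They included the major urinary protein genes Mup20 (1.52, adjusted p = 0.0151) and Mup1 (1.43, adjusted p = 0.0387). The others were Mup21 (1.25), Cyp3a41a (1.64), Elovl3 (1.97) and Cyp7b1 (fitted 1.79, on no AAV-V array). Cyp3a41a and Elovl3 were also called higher in AAV-GP73 than in AAV-V HFD, each by 3.28. In this list 15 genes were well above background on every AAV-GP73 array, but only 8 on every AAV-V array. The count is therefore partly set by the filter. In AAV-V HFD the same list had 0 higher and 3 lower. With all-probe scaling Orm3 and Hsp90b1 were at -0.20 and -0.17 in AAV-GP73.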

How the data were processed

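Liver RNA was measured on 9 one-colour Agilent arrays of 60-base probes, 3 per group. Per the file headers, Feature Extraction 12.0.3.1 made the intensities (the submitters' processing notes name 10.7 and limma), and the processed intensity deposited by the authors was used with the mean and background intensities. The authors' series table of log2 values served as an alternative; its scaling is not given in the sources used here. Control spots and flagged outliers were left out, spots of 1 probe averaged, and log2 signals scaled to a common 75th percentile over probes well above background on all arrays. The brightest probe per gene was tested with limma 3.58.1 (R 4.3.3), all 3 groups in 1 fit. Replicate numbers did not pair the samples (correlations of deviations -0.12 to 0.17). The fit was tested on simulated data. Every member that passed the filter was named, with every Serpina1 and Serpina3 paralogue; from the other gene lists (serpin target proteases, folding and export, receptors and cofactors, hepatic transcription factors, acute phase proteins, growth hormone and sex-biased genes), up to 3 genes per list with the largest called change were eligible, and others named were chosen after their values were seen. Members and lists were chosen with earlier results of these data known. The number of arrays limits the precision. Some items are not reported here.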

Additional observations from a re-analysis of the deposited data

How the results depend on the processing

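Over 1365 recomputed differences of single serpins, 1282 kept their side of the threshold; 31 no longer passed, 41 newly passed and 11 turned sign with a call on either side, while another 89 turned sign without being called under either setting. The counts of serpins higher under GP73, higher under the diet and lower under the diet were 5, 2 and 1 as reported. Over all 5761 genes they were 1912, 1427 and 1049. All-probe scaling gave 14, 6 and 0 serpins, beside 3717, 3273 and 182 of all genes. Spike-in scaling gave 18, 9 and 0, beside 4385, 3772 and 73. Normexp gave 1, 0 and 0, beside 138, 72 and 825. The authors' log2 values gave 3, 2 and 2 (Serpinb8 and Serpinf1 lower in place of Serpina3k). Beside these, 2200 of all genes were higher under GP73 and 1019 lower under the diet. Testing only the 15 serpins and 2427 genes well above background on all 9 arrays gave 2, 0 and 2, beside 391, 281 and 736. Quantile normalization left 0 lower in AAV-V HFD. With spike-in scaling 1 was higher in AAV-GP73 than in AAV-V HFD. With no filter on dim probes 38 serpins were called lower in each group against AAV-V, which counts probes below background on arrays of unequal brightness. Averaging a gene's probes gave 1 lower in AAV-GP73 (Serpinc1, -1.27) and 2 lower in AAV-V HFD. The methods' t-test gave 0 higher in AAV-V HFD before and after adjustment and 1 higher in AAV-GP73 after it. At an adjusted p under 0.01, 3 were higher under GP73 and 0 under the diet.

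Signs turned with spike-in scaling for Serpina1a (1.68), Serpina1c (1.63) and Serpina3k (1.35) in AAV-GP73 and for Serpina3k (0.16) and Serpine2 (1.20) in AAV-V HFD. They turned with normexp for Serpinb6a (-0.46), Serpinb6c (-0.50) and Serpine2 (-0.59) in AAV-GP73 and for Serpinb6a (-0.63) and Serpinb6c (-0.67) in AAV-V HFD. The cause was not tested. Leaving out 1 array at a time gave 3 to 5 higher and 0 to 1 lower in AAV-GP73, 1 to 5 higher and 1 lower under the diet, and 0 to 1 higher in AAV-GP73 than in AAV-V HFD (Serpine2 without AAV-V HFD replicate 2, which leaves it on no AAV-V HFD array well above background). With a replicate block, where the samples share only a number, 4 serpins were higher in AAV-GP73, and the AAV-V HFD counts stayed at 2 and 1. A slide term could not be fitted, since each comparison with AAV-V HFD crosses slides; AAV-V and AAV-GP73 alone, within 1 slide, gave 5 higher.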
